A study of Caenorhabditis elegans with 2 samples.

Results

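The genes scpl-3, tasp-1 and sec-61.G of Caenorhabditis elegans were examined because, in the list of regions bound by Y55F3AM.14-eGFP, they stood beside the strongest promoter regions outside ribosomal protein genes. They are 3 of 19971 protein-coding genes on the nuclear chromosomes in the RefSeq annotation of build WBcel235, and were chosen by their scores, so those scores are given as a description without a test. A peak row belonged to a gene when its summit, the position of highest signal, lay inside the gene or within 2000 bp of one of its annotated starts. By that rule the 3 genes held 4 of 1604 rows of the optimal list, 16 of 29629 of the pooled list, 13 of 29577 of replicate 1 and 11 of 28681 of replicate 2.

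Binding was measured by chromatin immunoprecipitation with an anti-GFP antibody, followed by sequencing, in 1 group of 2 biological replicates of whole L2 larvae. The animals were of strain OP608, with the genotype unc-119(tm4063) and the transgene wgIs608, which carries Y55F3AM.14::TY::EGFP::3xFLAG and unc-119(+). Males and females were pooled. Bleached embryos were starved as L1 larvae so that the animals grew in step, and their age was 42 hours. Sonicated fragments measured 200 to 800 bp. All animals came from this 1 transgenic line, and whole larvae mix all cell types. In the annotation used, Y55F3AM.14 has the symbol znf-782 and its product is a zinc finger protein of the C2H2 type. The optimal list was the authors' set of regions that passed an irreproducible discovery rate threshold, and its 1604 rows were the 1604 highest-scoring rows of the pooled list, 5.41% of that list. Read depth is unknown. Libraries of other factors or of untagged animals were not analysed here, so whether the regions are particular to the tagged protein was not tested.

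A promoter is the DNA around the start of a gene at which RNA polymerase II and its cofactors assemble, and sequence-specific factors often contact DNA just upstream of it. The 3 genes have unrelated products. scpl-3 encodes a CTD small phosphatase-like protein, and relatives of this family in mammals remove phosphates from the tail of RNA polymerase II. tasp-1 encodes a homolog of Taspase, a protease known in mammals for cutting MLL histone methyltransferases and a subunit of the general transcription factor TFIIA. sec-61.G encodes the gamma subunit of the Sec61 channel, through which newly made secreted and membrane proteins enter the endoplasmic reticulum (ER).

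The sequences of the optimal regions upstream of every annotated start are shown for tasp-1 and sec-61.G, because the summits and the words described later lie in them. Both are from RefSeq WBcel235, on the strand of the gene, 5′ to 3′. Capitals mark matches to the GA repeat GAGAGA, to the word GACGC and to the word GCACGC. A match on the opposite strand appears here as the reverse complement, so that the last of these words reads GCGTGC in both sequences. The tasp-1 sequence is chrIII:10759093-10759306 on the plus strand, 214 bases, and the summit is base 149. The sec-61.G sequence is chrV:10897239-10897472 on the minus strand, 234 bases, and the summit is base 96.
tasp-1: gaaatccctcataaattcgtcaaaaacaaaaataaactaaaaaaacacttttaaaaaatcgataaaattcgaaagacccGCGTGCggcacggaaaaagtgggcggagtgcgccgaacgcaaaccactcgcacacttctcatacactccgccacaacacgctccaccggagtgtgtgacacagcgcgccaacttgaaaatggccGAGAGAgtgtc
sec-61.G: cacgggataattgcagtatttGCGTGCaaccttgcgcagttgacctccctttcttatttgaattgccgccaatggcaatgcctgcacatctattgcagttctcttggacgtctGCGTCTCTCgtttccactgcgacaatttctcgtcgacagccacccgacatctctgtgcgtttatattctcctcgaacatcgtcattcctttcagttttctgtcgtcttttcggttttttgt
In the sec-61.G sequence the GA repeat and the GACGC word share bases and read as 1 run of 9 capitals.

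The 3 genes were chosen by their scores, so their places in the ranking below describe that choice and are no independent check. Of the 1604 optimal regions, 606 (37.8%) had a summit within 500 bp of a protein-coding start, and 584 of these (36.4% of the optimal list) had no start of a ribosomal protein gene within that distance. By the score in column 7 of the lists, the signal value of the authors' peak caller, scpl-3, tasp-1 and sec-61.G held the first 3 places of those 584 regions. Their pooled scores were 1466, 833 and 726, which were ranks 1, 5 and 11 of the whole optimal list. The next place was that of the region between nhr-47, a nuclear hormone receptor gene, and the DnaJ gene dnj-19, with a score of 647. Places 5 to 10 belonged to F08F3.4, which encodes a mitochondrial threonine dehydrogenase (642), cdc-48.1, an AAA ATPase gene (607), epn-1 (592), tos-1 (579.9), cox-5A, a cytochrome oxidase subunit gene (549.6), and hsp-1, a constitutive Hsp70 gene (543). The score of scpl-3 thus stood far above its neighbours in the order, and the steps between places 4 and 10 were small. The place of sec-61.G depended on how ribosomal protein genes were left out: it was 4 where the nearest start alone decided, because the region 162 bp upstream of Y17G9B.5, which also lies near rpl-18A, has a score of 752.

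**Figure D1:**
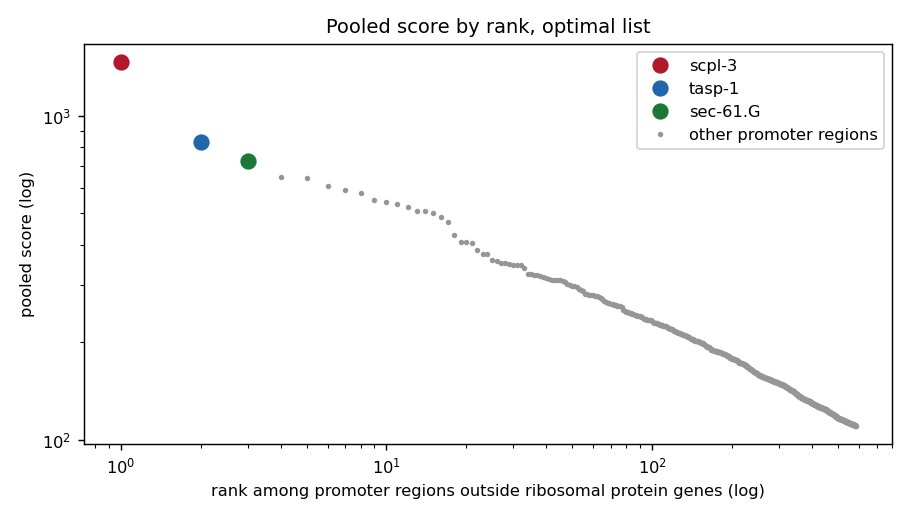
Pooled score (log axis) of the 584 optimal promoter regions outside ribosomal protein genes against their rank (log axis), with the 3 genes in colour and other regions in grey. scpl-3 (1466), tasp-1 (833) and sec-61.G (726) come first, and the next region has a score of 647.

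At scpl-3 (Y47D9A.2, chromosome I, 4298184 to 4302245, plus strand), the strongest region of the data set spanned the annotated start. It covered positions 4297922 to 4298401, a width of 480 bp, with the summit at 4298132, 52 bp upstream of the first RefSeq start and 494 bp upstream of the first coding base. Of its bases, 218 (45.4%) lay between the start and the first coding base. The score was 787 in replicate 1 and 687 in replicate 2, the highest of either list, and the summit lay 16 bp apart in the replicates. The optimal list held another row over nearly the same interval with its own summit 153 bp past the start, at rank 140 with a pooled score of 311, which is 21.2% of the score of the main summit. This share was lower in each replicate, 8.71% in replicate 1 and 17.8% in replicate 2.

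This second scpl-3 summit was less alike in the replicates than the main one. It had a score of 68.5 and rank 1341 in replicate 1, and a score of 122 and rank 223 in replicate 2. Its pooled score of 311 was well above the sum of its replicate scores. Over the optimal regions found in both replicates, the median ratio of pooled score to that sum was 1.00. The log2 ratio of replicate 1 over replicate 2 was -0.84, and 1.98% of the 1517 optimal regions found in both replicates had a lower ratio. Its summit lay 222 bp from the main summit in replicate 1 and 206 bp in replicate 2.

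The other 3 pooled rows of scpl-3 lay in its body and were not in the optimal list. The highest, with a score of 109 at rank 1649, had its summit 1406 bp past the first start and 317 bp upstream of the gene's second annotated start, from which a shorter transcript begins. It was present in replicate 1 with a score of 58.5 and in replicate 2 with 50.02, and the lowest pooled score of the optimal list was 110.3. The remaining pooled rows, at 1605 and 3623 bp past the first start, had scores of 38.6 and 73.5. A pooled row 5899 bp past the start, with a score of 47.7, was the nearest one outside the limits of the rule.

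At tasp-1 (K01G5.9, chromosome III, 10759385 to 10763006, plus strand), 1 sharp region stood upstream of the start. It covered chrIII:10759093-10759386, a width of 294 bp, with the summit at 10759241, 144 bp upstream of the RefSeq start and 526 bp upstream of the first coding base. The Ensembl annotation of the same build begins 1 tasp-1 transcript further upstream, at 10759307, and from there the summit was 66 bp upstream. The score was 465 in replicate 1 (rank 5) and 366 in replicate 2 (rank 10), and the summits of the replicates were 2 bp apart. The other 5 pooled rows of the gene had scores of 39.3 to 71.0, so the next one was 11.7 times below the main region. The highest of them, 1391 bp past the start, had a score of 50.7 in replicate 1, and the nearest row of replicate 2 there had 19.2. The outermost pooled row within the limits lay 1807 bp upstream of the start (score 56.1), and the nearest one outside lay 4088 bp past the start (score 44.0).

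At sec-61.G (F32D8.6, chromosome V, 10896658 to 10897143, minus strand), the region lay wholly in intergenic sequence. It covered chrV:10897239-10897472, 234 bp, with the summit at 10897377, which is 234 bp upstream of the RefSeq start and 242 bp upstream of the first coding base. The Ensembl start is the same. Scores were 347 in replicate 1 (rank 19) and 375 in replicate 2 (rank 7), and both replicates had their summit at the same base as the pooled list. The other 4 pooled rows had scores of 40.8 to 62.7, at least 11.6 times lower, and all 4 lay outside the gene, which is only 486 bp long. The outermost of them within the limits was 1696 bp upstream of the start, with a score of 62.7. Just outside the limits, 2322 bp past the start and at the neighbouring genes F32D8.5 and F32D8.14, was a pooled row with a score of 109, higher than any of those 4.

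**Figure D2:**
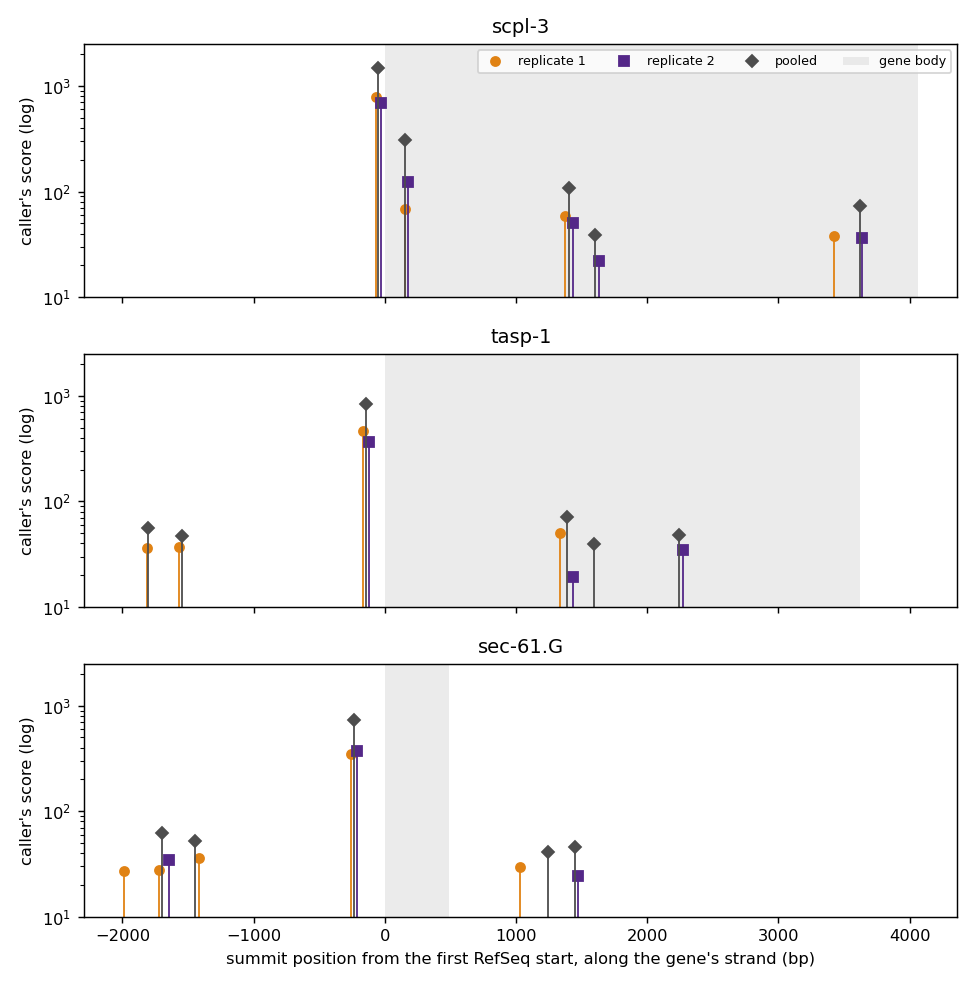
Score (log axis) of every row by the rule in replicate 1, replicate 2 and the pooled list, against the position of its summit from the first RefSeq start along the strand of each gene, in bp; the rows of replicate 1 and replicate 2 are drawn 25 bp to either side of their position so that they can be told apart. In each gene 1 summit just upstream of the start (pooled scores 1466, 833 and 726) stands above all others, and only scpl-3 has a further optimal summit, at 153 bp past the start.

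For comparison, 7.91% of protein-coding genes had an optimal summit by this rule and 3.42% had one within 500 bp of a start. With 5 pooled rows at scpl-3, 6 at tasp-1 and 5 at sec-61.G, the 3 genes held more rows than the median protein-coding gene, which had 1. Of all genes, 92.7% had fewer pooled rows than scpl-3 and sec-61.G, and 95.5% had fewer than tasp-1. These shares were not adjusted for gene length or for rows that lie in neighbouring genes. All pooled rows of sec-61.G but the main one lay in the bodies of its neighbours F32D8.5, F32D8.13 and F32D8.7. The tasp-1 rows 1546 and 1807 bp upstream of its start lay in K01G5.10 and rnf-113. The row counts therefore do not show binding gathered at the 3 genes themselves. In the optimal list 98.8% of genes had fewer rows than scpl-3, which had 2. The 3 genes were chosen for a high-scoring region, so at least 1 optimal and 1 pooled row of each was fixed in advance. Having 1 optimal row was already more than 92.1% of genes had.

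The replicates were compared at the main summits to see how far the order of the genes held in each. The pooled score was close to the sum of the replicate scores: 0.995 times that sum at scpl-3, 1.00 times at tasp-1 and 1.01 times at sec-61.G, against a median of 1.00 over 1517 optimal regions. Relative to the median score of its own list, scpl-3 was 26.4 times higher in replicate 1 and 27.2 times higher in replicate 2 (mean 26.8 ± 0.590, SD, n = 2). tasp-1 was 15.6 and 14.5 times the median of its list (mean 15.05 ± 0.764, SD, n = 2). sec-61.G was 11.6 and 14.8 times the median (mean 13.2 ± 2.27, SD, n = 2). Both values of scpl-3 lay above those of all other promoter regions, but the ranges of tasp-1 and sec-61.G overlapped, so their order was not larger than the spread between replicates. The range of sec-61.G also overlapped those of the next places in the order, nhr-47 with 12.3 and 11.04 times the median and F08F3.4 with 10.8 and 12.7 times.

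The direction of the difference between replicates was not the same in the 3 genes. The log2 ratio of replicate 1 over replicate 2 was 0.20 at scpl-3 and 0.34 at tasp-1, and -0.11 at sec-61.G. Over the other promoter regions with a row in both replicates, 542 in number and including the second scpl-3 summit, the median was 0.25, with quartiles of -0.02 and 0.50. All 3 genes were within the range of those regions (-1.33 to 2.74), and 19.2% of them had a ratio below that of sec-61.G. The -log10 q value was 2.78 at all 3 genes, the highest of the list, and 101 other promoter regions had the same value, so it does not order them.

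**Figure D3:**
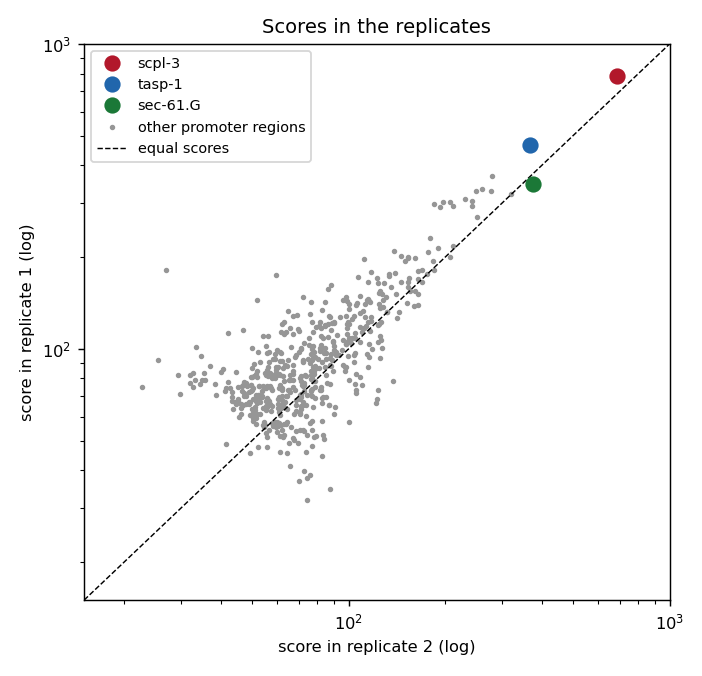
Score in replicate 1 against score in replicate 2 (both log axes) for the 3 genes in colour and the other promoter regions outside ribosomal protein genes in grey, with the dashed line of equal scores. scpl-3 (787 and 687) stands apart, and tasp-1 (465 and 366) and sec-61.G (347 and 375) lie on opposite sides of the line.

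In width the regions of the 3 genes differed from most promoter regions, which had a fixed width of 424 bp. tasp-1, at 294 bp, and sec-61.G, at 234 bp, were narrower, as were all 17 promoter regions of rank 4 to 20, whose median was 214 bp. Of the 80 regions of rank 21 to 100, 12 (15%) were narrower than 424 bp, and of the 484 below them 3 were. scpl-3, at 480 bp, was wider, and the only other promoter region above 424 bp was the row of its own second summit (486 bp). How the caller set widths is not given in the sources used here. Width moved with score across the list, and its part in the scores was not tested.

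**Figure D4:**
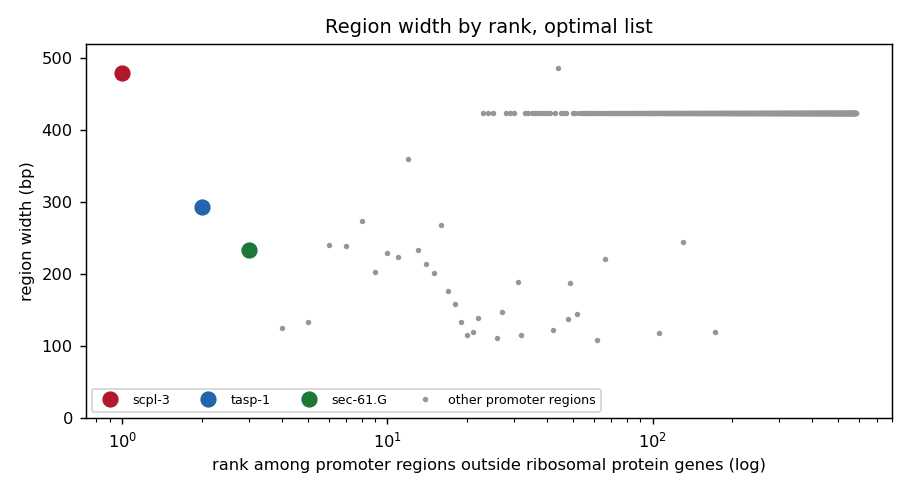
Region width in bp against rank (log axis) among the 584 promoter regions outside ribosomal protein genes, with the 3 genes in colour and others in grey. tasp-1 (294 bp) and sec-61.G (234 bp) lie below the fixed width of 424 bp, as do the 17 regions of rank 4 to 20, and scpl-3 (480 bp) lies above it together with its second row (486 bp).

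The summits of all 3 genes were upstream of the start, at 52, 144 and 234 bp. The other 581 promoter regions, which also include that second summit, had a median position of -166 bp, with quartiles of -284 and -42 bp, so the 3 genes lay between those quartiles. In the 151 bp centred on the summit, the GC content was 49.7% at scpl-3, 60.3% at tasp-1 and 52.3% at sec-61.G. The median of the other regions was 47.0%, and 31 of the 581 reached the value of tasp-1. None of the 50-base words of the 3 windows occurred elsewhere in the nuclear genome. This was usual, since the share of such repeated words had a median and an upper quartile of 0% over the other 581 regions. The replicate summits, 16, 2 and 0 bp apart, compared with a median of 21 bp over other promoter regions. Small gaps were not particular to the 3 genes, since places 4 to 10 had gaps of 0 to 6 bp. Of the other promoter regions, 43.5% had a smaller gap than scpl-3.

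The words searched in these windows were GAGAGA, a GA repeat, and GACGC, together with TATAA and TTTCAG, letters like those of a TATA box and of a 3′ splice site, all on either strand. scpl-3 held 5 GA repeats, tasp-1 held 1 and sec-61.G held 1. At least 1 occurred in 29.4% of the other promoter windows, 37.3% of the remaining optimal windows and 12.6% of the 27586 weaker windows, those of pooled regions that overlap no optimal region. A count of 5 or more was reached by 19 of the 581 other promoter windows (3.27%). Counts include overlapping matches, and 2 of the 5 at scpl-3 lay 2 bp apart, at 12 and 14 bp past the summit. The same scpl-3 window held a run of 22 bases made only of purines or only of pyrimidines, against 8 at tasp-1, 12 at sec-61.G and a median of 10 in the other promoter windows, and 28 of these reached 22, among them that of the second scpl-3 summit (32). This measure was chosen after the sequences were seen.

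GACGC occurred once at sec-61.G, centred 20 bp downstream of the summit and overlapping the GA repeat, and in neither of the other windows. Its share was 34.9% in other promoter windows and 13.7% in weaker windows. TATAA and TTTCAG were in none of the 3 windows, and in 13.8% and 12.4% of other promoter windows. Thus no word of the 4 but the GA repeat was common to all 3 windows, and with 50 bp on each side of the summit it was not common either, since tasp-1 then had 0 GA repeats. The absences depended on the window. With 150 bp on each side, sec-61.G held 1 TATAA and 1 TTTCAG, both inside its printed sequence, beside 33.9% and 31.7% of other promoter windows. With that window tasp-1 held 1 GACGC, as did 46.3% of other promoter windows with at least 1.

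Of all 6-letter words, the 3 windows had 4 in common, out of 122 different words at scpl-3, 137 at tasp-1 and 141 at sec-61.G. The first was the GA repeat, the second was GCACGC, and the others were the word CCGCCA and, overlapping it by letters, the word CGCCAA, all on either strand. GCACGC was present in 12.2% of other promoter windows and 2.57% of weaker windows. It was centred 38 bp upstream of the summit at scpl-3, 66 bp upstream (-66) at tasp-1 and 72 bp upstream (-72) at sec-61.G. In narrower windows of 50 bp on each side it was therefore kept at scpl-3 and lost at tasp-1 and sec-61.G. CCGCCA was in 7.92% and 5.61% of those 2 sets, and CGCCAA in 8.78% and 6.51%. In scpl-3 and sec-61.G the last 2 words overlapped as CCGCCAA, with centres 1 bp apart, whereas in tasp-1 they lay 1 and 39 bp past the summit. These words were found after the windows were read, and a match is a description of the letters.

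The neighbouring genes differed between the 3 loci. No gene on the other strand began within 18 kb of the scpl-3 summit, the nearest being Y47D9A.5, 18510 bp away, and the closest upstream gene was the long non-coding RNA gene linc-85 on the same strand, which ended 1391 bp away. tasp-1 is divergent from K01G5.10, which encodes a haloacid dehalogenase-like hydrolase and begins 719 bp from the tasp-1 summit. No pooled summit lay within 500 bp of the K01G5.10 start. Beyond it lies rnf-113, a ubiquitin ligase gene on the same strand as K01G5.10, whose start was 1601 bp away. sec-61.G is divergent from F32D8.7, a gene for a protein with a Kunitz inhibitor domain, whose start was 1058 bp from the sec-61.G summit. The highest pooled score within 500 bp of the F32D8.7 start was 62.7. On the other side, F32D8.13, which encodes a phosphomevalonate kinase, begins 834 bp from the summit on the same strand as sec-61.G, and F32D8.5, on the other strand, begins 2517 bp away. At all 3 loci the main summit was thus nearer to the start of the named gene than to any other protein-coding start, and no other such start lay within 500 bp.

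Other genes of the same pathways were counted next, to see whether they too had regions. The 4 lists of 60 symbols, of which 52 matched the annotation, were chosen with earlier results known, and no test was run on them. Among other genes of ER import, 6 of 17 (35.3%) had an optimal summit within 500 bp of a start, beside 3.42% of all protein-coding genes. sec-61.B, the beta subunit of the channel, and trap-3, a subunit of the translocon-associated complex, are divergent and share 1 region (IV:2388924-2389347), so the 6 genes have 5 regions. That region had a pooled score of 311, with 198 in replicate 1 and 111 in replicate 2. Its summit was nearer to trap-3, 309 bp upstream of it, than to sec-61.B, 461 bp upstream. hsp-3, a gene for the ER Hsp70 chaperone BiP, had a score of 272 (155 in replicate 1 and 125 in replicate 2).

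The other ER import genes with a region had scores near the lower end of the optimal list. They were spcs-2, a signal peptidase subunit gene (133), trap-2 (126) and the J domain gene dnj-29 (123). Each of these 3 regions also lay within 500 bp of the start of another gene, mrg-1 at spcs-2, ile-2 at trap-2 and ndua-2 at dnj-29. sec-61.A, the pore-forming subunit, had a pooled score of 110.2 at rank 1609, just under the lowest optimal score of 110.3. All 3 subunit genes of the Sec61 channel thus had a summit within 500 bp of a start, at very different scores. Of the other 17 genes, 6 had no pooled summit within 500 bp: sec-62, trap-4, tram-1, spcs-1, spcs-3 and hsp-4. Within 500 bp of a start, 33.1% of all protein-coding genes had a pooled summit. Of 5 annotated genes of oligosaccharyl transferase, the enzyme that adds glycans in the ER, only dad-1 had an optimal region (150.8), and the other 4 had no pooled summit there. That summit was 450 bp upstream of dad-1 but 11 bp past the start of tre-1, a trehalase gene on the other strand.

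The other genes of the lists that hold scpl-3 and tasp-1 were counted in the same way. The shares over all protein-coding genes were again 3.42% with an optimal summit and 33.1% with a pooled summit. The scpl-3 list held 13 other genes, for FCP1/SCP-type phosphatases, other RNA polymerase II phosphatases, and kinases and cyclins that act on this polymerase. Of these, 0 had an optimal summit and 4 had a pooled summit: scpl-1 (85.5), ssup-72 (79.2), cdk-9 (65.3) and cit-1.2 (51.5). scpl-4, fcp-1 and cnep-1 had none. Of 14 other genes of the COMPASS/MLL list, 1 had an optimal region: set-16, which encodes an MLL-type histone methyltransferase. Its region (III:13643655-13643769) had a pooled score of 408 at rank 60, with 231 in replicate 1 and 179 in replicate 2, and a summit 184 bp upstream of the start. The region is shared with the divergent gene drr-2, which encodes a protein with an RNA recognition motif and whose start was nearer, at 162 bp. Another 7 of the list, ash-2, set-2, cfp-1, utx-1, wdr-5.1, pis-1 and wdr-5.2, had pooled scores of 43.1 to 65.5.

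**Figure D5:**
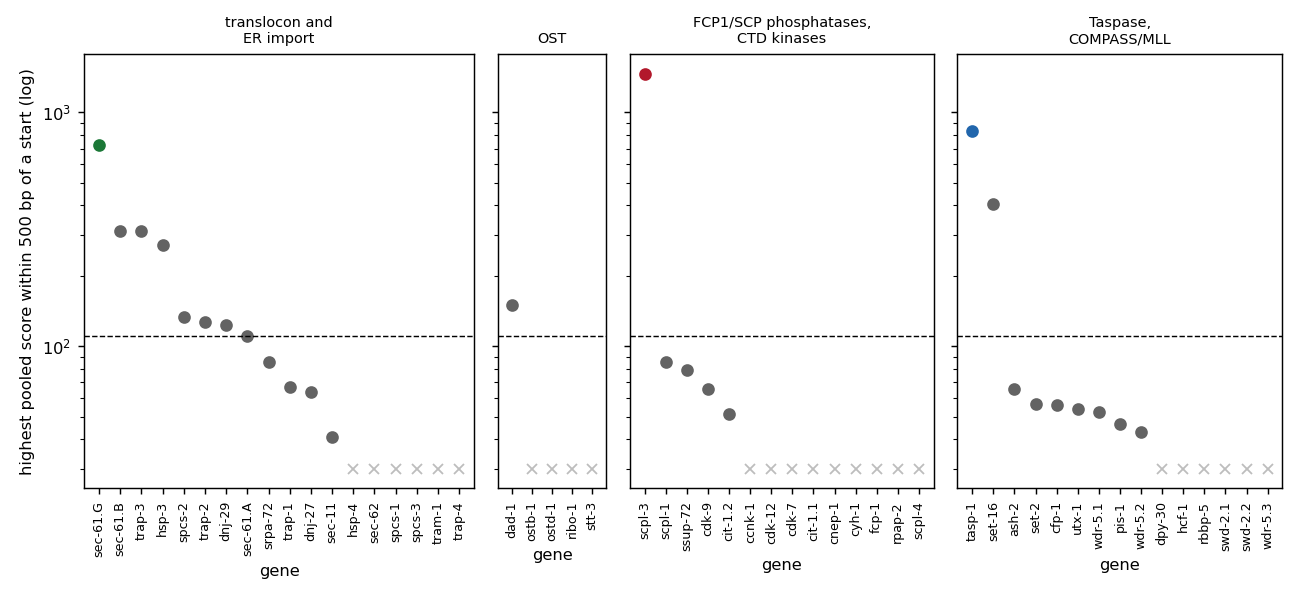
Highest pooled score (log axis) within 500 bp of a start for each annotated gene of the 4 lists, with sec-61.G, scpl-3 and tasp-1 in colour, the lowest optimal score (110.3) as a dashed line and a grey cross for genes with no pooled summit there; OST stands for oligosaccharyl transferase. Other than the 3 genes, 6 ER import genes, dad-1 and set-16 lie above the line, and sec-61.A lies at it with 110.2.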

How the data were processed

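The authors deposited 4 narrowPeak lists on build ce11, which is WBcel235. According to the README that the authors deposited, the lists of peaks and background came from each replicate and 1 control, and from both replicates and 1 control, and the optimal list from an irreproducible discovery rate threshold. No source used here gives the aligner, caller or threshold. The score per region and the −log10 of its q value are the authors' own values, as deposited. Scores were used to rank and describe regions within a list.

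Computed here, with Python 3.11.15, pandas 2.3.3 and numpy 2.4.6, were summit positions, distances to RefSeq starts, matches between lists (summits within 100 bp), word counts 75 bp on each side of a summit, and the share of 50-base words found elsewhere in the genome. Functions were tested on simulated data. Genes named are the 3 members, genes within 2000 bp of their summits, the 10 highest promoter regions and list genes with a region; genes without an optimal region, Y47D9A.5, Y17G9B.5, F32D8.14 and genes that share a region with a list gene were named after their values were seen. Members, words and lists were chosen with earlier results of these data known, and no test was run. After the lists had been counted, 1 gene was taken out of them and is not reported here.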

Additional observations from a re-analysis of the deposited data

How the results depend on the processing

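With 1 group and no test, these values show stability of order only. The place of scpl-3 among promoter regions was 1 in each of the 7 alternatives. tasp-1 was 2 or 3 with 1 replicate left out (3 without replicate 1, where sec-61.G passed it) and 2 in the others. sec-61.G was 2 to 4 with 1 replicate left out (4 without replicate 2, where nhr-47 passed it), 4 with a promoter limit of 250 bp or the nearest start only, and 3 in the others. Ranks were also used in place of scores, as the log2 of the rank in replicate 2 over the rank in replicate 1. A positive value then again means a higher place in replicate 1. It was 0 at scpl-3, 1 at tasp-1 and -1.44 at sec-61.G. Matching within 50 or 200 bp left the log2 ratio of scores as it was. ER import genes with a region, sec-61.G included, numbered 7, with 6 to 7 when 1 replicate was left out, 4 within 250 bp of a start and 4 among the 802 highest optimal regions. Oligosaccharyl transferase genes numbered 0 within 250 bp. The FCP1/SCP list had 1 in every alternative, and the COMPASS/MLL list 2, or 3 when either replicate was left out. The counts of these 2 lists include scpl-3 and tasp-1, which were chosen for their scores. The share over all protein-coding genes is not available for these alternatives. The list counts in them therefore describe stability and cannot be set beside the 3.42% found with the 500 bp limit. With 50 bp on each side of the summit the GA repeats were 2 at scpl-3 and 0 at tasp-1, and the words common to all 3 genes were 2 (CCGCCA and CGCCAA). With 150 bp they were 11. The counts of common words and the Ensembl start of tasp-1 (-66 bp) were tried after seeing the data. Of the alternatives for counts of rows, words and copies and for summit positions, 84 gave a value within 1.5 times the reported one and 20 moved it further. Many of the 84 were counts of words or copies that were 0 and stayed 0. The rows of sec-61.G in the pooled list, 5 by the rule, were 1 within 500 bp of a start. Depth, and so counting error, is unknown.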
